A study of Mus musculus with 10 samples.

Results

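The genes described here mark dentate granule neurons, the principal excitatory neurons of the dentate gyrus, and were compared between wild-type and Fndc5 knockout mice. They are PROX1, C1QL2, C1QL3, DSP, TDO2, LCT, PLK5, CALB1, STXBP6 and NPNT, chosen by symbol and written in capitals as in the count table. All 10 of 10 were found among the 24982 genes of the count table, and all 10 were among the 14867 genes that had enough reads to be tested. The tissue was the dissected dentate gyrus of male C57BL/6 mice aged 10 weeks, with 5 wild types and 5 global knockouts of Fndc5, which encodes the precursor of the secreted protein irisin. The labels name no treatment, and each mouse gave 1 library. The deletion is present in every tissue, so a difference in the dentate gyrus cannot be assigned to Fndc5 made there. The comparison asks whether the mature identity of granule neurons, as read from these transcripts, differs without Fndc5.

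Granule neurons receive input from the entorhinal cortex and send mossy fibres to CA3. The homeodomain factor PROX1 sets and maintains their fate, and new granule neurons, born in the adult subgranular zone, keep PROX1 while they gain CALB1 as they mature. C1QL2 and C1QL3 are secreted at mossy fibre synapses, where they organise kainate-type glutamate receptors. Several other markers of these cells, such as the desmosome protein gene DSP, the lactase gene LCT and the tryptophan dioxygenase gene TDO2, are better known from skin, gut and liver.

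Total counts ranged from 26226375 to 43802079 per library. Fndc5 was at 75.3 ± 4.60 CPM among wild-type mice against 51.3 ± 4.27 CPM among knockouts (mean ± SD over 5 mice), with no overlap (69.2 to 80.3 against 45.4 to 56.7 CPM). Its log2 fold change was -0.55 (edgeR adjusted p 0.000495). The labels name separate mice but give no litter or day of dissection. CPM is a gene's share of the counts of its library, after scaling by TMM, which adjusts for differences in RNA composition.

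Wild-type mouse 1 stood apart from the other mice. Results with and without it are given for the 10 genes and for the lists of other granule neuron genes and neighbouring cell markers. Some single genes of these lists are given with all mice only. It had the lowest summed level of the 10 granule neuron genes (2101 CPM, against 2339 to 2412 in the other wild types and 2275 to 2453 in knockouts). It also had the lowest sum over 22 other granule neuron genes (8773 CPM, against 9009 to 9322 and 8992 to 9645). Its summed level of 18 GABAergic interneuron markers was the highest of all libraries (1299 CPM, against 1087 to 1167 and 1092 to 1173), as was that of 13 CA2 and CA3 pyramidal markers (1110 CPM, against 944.3 to 969.3 and 903.8 to 991.9). The ribosomal RNA precursor took 1.85% of its counts, also the highest value, against 0.603% to 1.38% in the others. This share was not high in that mouse alone. It was 1.38% in wild-type mouse 2, 1.2% in knockout mouse 1 and 1.29% in knockout mouse 2. In mice 3 to 5 of both genotypes it was 0.603% to 0.996%. The part of tissue makeup or of RNA preparation in the results below was not tested.

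The sequences just upstream of most of these genes were rich in G and C. The table of RefSeq promoters used here (GRCm38.p6) holds 11 start sites for 9 of the genes, and CALB1 was not matched. In the 250 bases before these starts the median GC content was 65.6%, against 52.4% over all 32851 promoters, and the median number of CG pairs was 20 against 6. LCT and TDO2 were the exceptions, with 1 and 3 CG pairs. The sequences below are those of PROX1, the factor that sets the fate, of DSP, NPNT and LCT, the members with the smallest p-values, and of TDO2, the member with the lowest level. PROX1 and NPNT have 2 start sites each in the table, and the upstream one is shown. The downstream one of PROX1 (chr1:190169516-190169765) has 1 GC box and 0 TATA boxes, and that of NPNT (chr3:132949815-132950064) has 0 of either. Capitals mark the GC box GGGCGG and the TATA box TATAAA on either strand.

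PROX1, chr1:190170828-190171077, minus strand: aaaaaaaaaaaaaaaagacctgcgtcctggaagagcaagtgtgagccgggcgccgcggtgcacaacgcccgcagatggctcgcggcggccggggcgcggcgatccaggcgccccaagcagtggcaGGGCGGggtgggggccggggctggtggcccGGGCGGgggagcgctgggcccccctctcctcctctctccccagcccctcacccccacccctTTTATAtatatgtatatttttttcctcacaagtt
DSP, chr13:38151044-38151293, plus strand: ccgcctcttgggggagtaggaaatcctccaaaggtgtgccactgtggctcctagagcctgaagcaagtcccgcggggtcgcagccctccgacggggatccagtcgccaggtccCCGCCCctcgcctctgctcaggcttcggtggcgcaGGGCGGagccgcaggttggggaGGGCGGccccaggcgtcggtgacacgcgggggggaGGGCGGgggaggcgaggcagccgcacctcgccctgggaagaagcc
NPNT, chr3:132950292-132950541, minus strand: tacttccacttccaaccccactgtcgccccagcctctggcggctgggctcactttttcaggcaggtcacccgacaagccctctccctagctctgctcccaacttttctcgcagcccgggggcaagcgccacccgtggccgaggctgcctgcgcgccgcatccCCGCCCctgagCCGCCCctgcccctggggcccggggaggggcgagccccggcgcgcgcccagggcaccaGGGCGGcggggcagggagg
LCT, chr1:128328319-128328568, minus strand: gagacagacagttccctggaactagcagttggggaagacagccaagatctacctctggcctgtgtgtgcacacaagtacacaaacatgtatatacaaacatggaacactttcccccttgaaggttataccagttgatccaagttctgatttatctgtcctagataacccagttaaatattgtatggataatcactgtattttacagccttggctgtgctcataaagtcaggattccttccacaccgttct
TDO2, chr3:81975729-81975978, minus strand: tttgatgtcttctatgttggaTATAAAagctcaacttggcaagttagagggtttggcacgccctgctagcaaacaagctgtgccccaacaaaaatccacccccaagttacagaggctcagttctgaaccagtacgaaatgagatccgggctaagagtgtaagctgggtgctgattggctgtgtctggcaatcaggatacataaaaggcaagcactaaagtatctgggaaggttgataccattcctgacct

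The GC box was found in 6 of the 11 promoters (54.5%; C1QL3, DSP, PLK5, 1 of NPNT and both of PROX1), against 32.7% of all promoters of this length. The TATA box was found in 2 of the 11 (18.2%; the upstream one of PROX1, and TDO2), against 12.4% of all. The E box CANNTG, the letters read by basic helix-loop-helix factors such as those of the NeuroD family, was found in 7 of the 11 (63.6%), against 66.2% of all. The cyclic AMP element TGACGTCA was found in 0 of the 11 and in 1.55% of all. A match is a description of the letters only.

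Most of the 10 genes were abundant in this tissue. In wild types 7 of them (all but TDO2, PLK5 and NPNT) lay between percentiles 93.5 (CALB1) and 97.8 (C1QL3) of CPM among genes tested, while NPNT was at 87.0, PLK5 at 73.4 and TDO2 at 47.9. Per kilobase of exon (the union of the exons of all GENCODE M21 transcripts), the median of the 10 was 39.2 CPM per kb. The same median was lower for the 22 other granule neuron genes (22.9) and for markers of immature granule neurons (21.6). It was 12.9 for CA2 and CA3 markers, 5.47 for interneuron markers, 4.23 for hilar mossy cell markers and 1.251 for CA1 markers. By these list medians granule neuron markers lay above those of the neighbouring neurons, by a margin that depends on the list. Single markers of those cells were higher, with PCP4 of the CA2 and CA3 list at 141.4 and the interneuron markers CCK, SST and NPY at 91.5, 62.2 and 59.3 CPM per kb. It was 60.8 for astrocyte markers and 21.2 for oligodendrocyte markers, so glial RNA was also plentiful. Among defining markers of the choroid plexus, TTR was at 4.56 CPM in wild types and FOLR1 at 0.0336 CPM.

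Levels per kilobase spread widely among the markers. C1QL3 was the highest in wild types (171.9 ± 7.95 CPM per kb, n = 5), followed by C1QL2 (119.7 ± 9.76) and STXBP6 (58.1 ± 6.77), and the ranges of these 3 genes over wild-type mice did not overlap. CALB1 (44.6 ± 2.57) and PROX1 (43.7 ± 4.26) could not be told apart by their ranges, nor could DSP (34.8 ± 3.30) and LCT (33.8 ± 1.32), nor NPNT (23.8 ± 1.19) and PLK5 (22.3 ± 3.10). PROX1 and DSP also overlapped. TDO2 was the lowest by a wide margin, at 5.10 ± 0.599 CPM per kb.

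**Figure D1:**
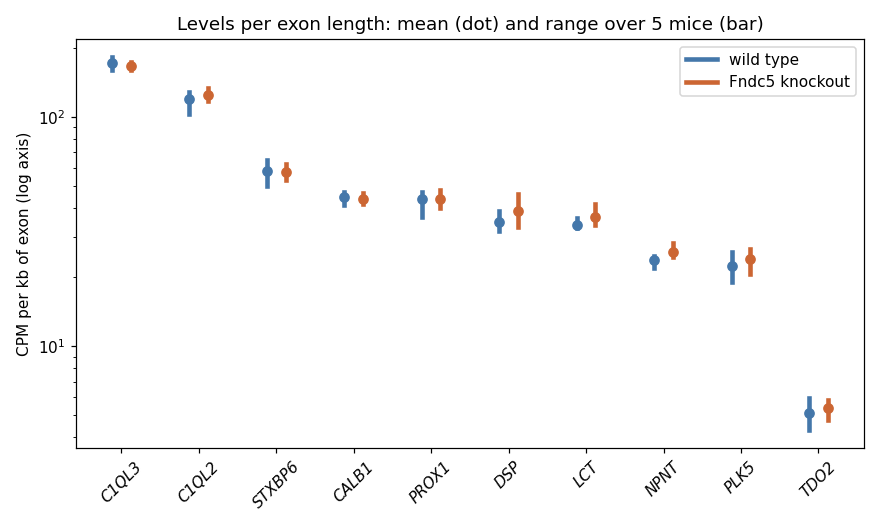
Level of each gene in CPM per kilobase of exon, on a log axis, with the mean (dot) and the range over 5 mice (bar) for wild types (blue) and knockouts (orange). C1QL3 at 171.9 and C1QL2 at 119.7 CPM per kb in wild types lead the order, TDO2 at 5.10 closes it, and the ranges of the genotypes overlap for every gene.

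Between the genotypes, 0 of the 10 genes passed the threshold in edgeR (adjusted p under 0.05), where 0.00673% of all genes did, and 0 passed in DESeq2 or limma-voom. At an unadjusted p under 0.05 there were 3, NPNT, LCT and DSP, all with higher values in knockouts. Over all genes 6.29% had such a p, with 2.54% higher and 3.75% lower in knockouts. The fitted value was above 0 for 7 of the 10, against 50.7% of all genes, and the median log2 fold change was 0.06, against 0.0016 over all genes. Libraries of the genotypes overlapped for all 10 genes, and 0.895% of all genes had groups that did not overlap. Without wild-type mouse 1 the median was 0.0093, 6 of the 10 values were above 0, and 0 had an unadjusted p under 0.05, where 7.08% of all genes did. That count was also 0 without wild-type mouse 2 (3.72% of all genes) or knockout mouse 3 (4.34%), and 1 without knockout mouse 5 (6.30%). It was 2 without any 1 of wild-type mice 3, 4 and 5 and knockout mice 1 and 4, with 4.74% to 8.13% of all genes, and 3 without knockout mouse 2 (8.27%). In bulk tissue, fewer cells of a type and less RNA per cell cannot be told apart.

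The spread between mice was small enough for narrow bounds. In the fit with all mice, the 95% intervals of the 10 genes ran at most from -0.16 (STXBP6) to 0.32 (DSP) on the log2 scale. These ends are a fall of 10.6% and a rise of 25.0%. Each interval holds for a single gene and was not adjusted over the 10. Some fits with a mouse left out reached further: STXBP6 was at -0.07 (SE 0.058) without wild-type mouse 1, and DSP at 0.22 (SE 0.068) without knockout mouse 2. The biological coefficient of variation, the spread between mice beyond counting noise, had a median of 0.0673 for the 10 genes and 0.0651 for all genes. It was lowest for C1QL3 (0.0471) and highest for PLK5 (0.0961).

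**Figure D2:**
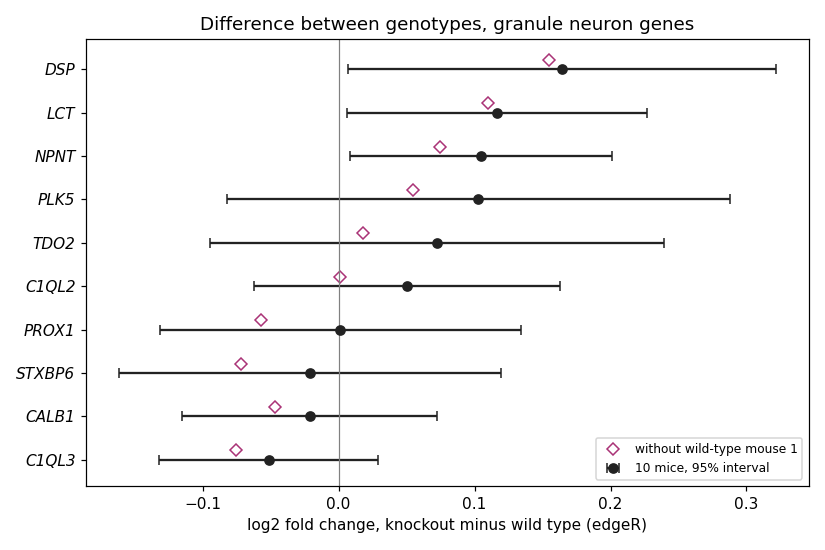
Log2 fold change, knockout minus wild type, from edgeR (dots, with 95% intervals, 5 mice against 5) and without wild-type mouse 1 (open diamonds). DSP at 0.16 is the highest and C1QL3 at -0.05 the lowest, and PROX1 lies at 0.0014 with all mice and at -0.06 without wild-type mouse 1.

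PROX1, the fate-setting transcription factor (chromosome 1, 190118035 to 190170714, minus strand, GRCm38), had the same mean in both genotypes to within 1 CPM. The wild types 1 to 5 were at 306.0, 389.5, 363.4, 394.1 and 378.7 CPM and the knockouts 1 to 5 at 335.7, 400.4, 387.4, 349.2 and 360.4 CPM. Wild-type mouse 1 was the lowest of all, and the other wild types lay within the range of the knockouts. The means were 366.3 ± 35.7 and 366.6 ± 26.8 CPM (fitted log2 difference 0.0014, SE 0.063, 95% interval -0.13 to 0.13, edgeR adjusted p 0.996). Without wild-type mouse 1 the log2 fold change was -0.06 (SE 0.048).

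CALB1 encodes calbindin, the calcium buffer of mature granule neurons (chromosome 4, 15881264 to 15908064, plus strand). Wild types were at 200.8, 204.3, 221.7, 225.9 and 227.1 CPM and knockouts at 213.7, 204.9, 225.9, 217.9 and 201.4 CPM. The genotypes covered nearly the same range. The fitted log2 difference was -0.02 (SE 0.044) with a 95% interval of -0.11 to 0.07 (edgeR adjusted p 0.950). Leaving out wild-type mouse 1 gave -0.05 and leaving out knockout mouse 5 gave -0.0022, and it was 0.06 after a correction for GC content and exon length.

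CALB1 was set beside 8 other neuronal calcium-binding protein genes. Of the 7 tested, 0 passed, 1 had a higher value at an unadjusted p under 0.05 (2.54% of all genes did) and 5 had fitted values below 0. SCGN, encoding secretagogin, averaged 2.60 ± 0.549 CPM without and 3.27 ± 0.525 CPM with the deletion (fitted log2 difference 0.32, SE 0.15, edgeR adjusted p 0.788). CALB2, encoding calretinin, which marks young granule neurons and mossy cells, averaged 39.9 ± 8.57 CPM without and 33.3 ± 12.2 CPM with the deletion (fitted log2 difference -0.26, SE 0.20). CALB2 varied far more between mice than CALB1. S100G was near 0 (0.0149 CPM in wild types).

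C1QL2 and C1QL3 are paralogs whose proteins cluster kainate receptors opposite mossy fibre terminals. C1QL2 (chromosome 1, 120340582 to 120343174, plus strand) was at 205.9, 241.5, 256.5, 244.1 and 248.6 CPM in the wild types, against 233.9, 265.9, 256.1, 244.8 and 238.5 CPM in knockouts. Wild-type mouse 1 was again the lowest, knockout mouse 2 was the highest, and the remaining libraries were interleaved. The fitted log2 difference was 0.05 (SE 0.053, 95% interval -0.06 to 0.16, edgeR adjusted p 0.884), 0.00085 without wild-type mouse 1 and -0.0052 after GC and length correction.

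C1QL3 (chromosome 2, 13003457 to 13011806, minus strand) was the most abundant of the 10 genes. It was at 406.3, 431.6, 459.9, 448.0 and 433.0 CPM in the wild types, against 407.8, 420.5, 440.5, 428.4 and 405.2 CPM in knockouts. Knockout mouse 5 lay just below every wild type, and the others overlapped. Its log2 fold change came to -0.05 (SE 0.038, 95% interval -0.13 to 0.03, edgeR adjusted p 0.835). It was -0.08 without wild-type mouse 1 (unadjusted p 0.0501) and -0.03 without wild-type mouse 3. A gene model on the opposite strand, Gm37811, which has no row in the table, covers 61.0% of its exon bases. The library kit marks strand, and the strand setting of the counting is not given in the sources used here, so the C1QL3 level is uncertain.

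The balance of the paralogs was compared within each mouse, a measure chosen after their values were seen. The log2 ratio of C1QL2 to C1QL3 was -0.87 ± 0.0686 in wild types (range -0.98 to -0.80) and -0.76 ± 0.0595 in knockouts (range -0.81 to -0.66, n = 5 each). It was above every wild type in 3 of 5 knockouts. The difference of 0.10 had an exact two-sided permutation p of 0.0238 without adjustment, where the smallest possible is 0.00794, and 1 such ratio was tested. Without wild-type mouse 1 the difference was 0.08 (exact permutation p 0.0476). After GC and length correction the fitted log2 differences were -0.0052 for C1QL2 and -0.07 for C1QL3, and the ratio was not tested again.

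Of 10 genes of the C1q-like family and its synaptic partners, 9 were tested and 0 passed. Fitted values were above 0 for 3 and below 0 for 6 (median -0.03), and 1 was lower at an unadjusted p under 0.05 (3.75% of all genes were). That gene was GRIK4, a kainate receptor subunit that CA3 neurons also express, and it averaged 96.2 ± 4.52 CPM without and 88.1 ± 5.18 CPM with the deletion (fitted log2 difference -0.13, SE 0.045, edgeR adjusted p 0.788). C1QL1 was at 5.30 CPM in wild types, far below C1QL2 and C1QL3, and C1QL4 was at 0.00455 CPM.

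STXBP6 encodes amisyn, a syntaxin-binding protein that restrains vesicle fusion (chromosome 12, 44852484 to 45074709, minus strand). Wild types ranged from 264.0 CPM in mouse 1 to 343.7 CPM in mouse 2, and knockouts from 279.9 CPM in mouse 1 to 328.7 CPM in mouse 2. In both genotypes mouse 1 was the lowest and mouse 2 the highest. The means were 307.7 ± 35.9 and 303.3 ± 19.0 CPM (fitted log2 difference -0.02, SE 0.066, 95% interval -0.16 to 0.12, edgeR adjusted p 0.967), and the log2 fold change was -0.07 without wild-type mouse 1.

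Of 11 genes for SNARE proteins and other syntaxin-binding proteins, all 11 were tested and 0 passed, with fitted values below 0 for 9 (median -0.01). STXBP2, encoding Munc18-2, a partner in secretion best known outside neurons, averaged 36.7 ± 1.93 CPM without and 42.1 ± 3.39 CPM with the deletion. Its log2 fold change was 0.20 (SE 0.056, edgeR adjusted p 0.788), the smallest p of that list. SNAP25, the neuronal SNARE, averaged 1733 ± 142 CPM without and 1631 ± 32.3 CPM with the deletion (fitted log2 difference -0.09, SE 0.046). The summed level of this list was higher in wild-type mouse 1 than in any other mouse, where it ran from 4004 to 4301 CPM.

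DSP had the largest fitted difference of the 10 genes. It encodes desmoplakin, which ties desmosomes to intermediate filaments in epithelium and heart (chromosome 13, 38151294 to 38198577, plus strand). Wild types were at 326.9, 305.4, 308.9, 373.4 and 366.3 CPM and knockouts at 384.1, 319.9, 380.5, 355.1 and 443.8 CPM. Knockouts 1, 3 and 5 lay above every wild type, mouse 5 by the widest margin, while knockouts 2 and 4 lay among the wild types.

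The DSP means were 336.2 ± 31.9 and 376.7 ± 45.4 CPM. The fitted log2 difference was 0.16 (SE 0.074, 95% interval 0.0069 to 0.32, edgeR unadjusted p 0.0417 and adjusted p 0.788). The exact two-sided permutation p was 0.143. Leaving out knockout mouse 5 gave 0.10 (SE 0.066), which is under the full value by more than 1.5 times. Leaving out wild-type mouse 1 gave 0.15 (SE 0.079, edgeR unadjusted p 0.069). DSP was the member whose profile over the 10 libraries lay farthest from the mean profile of the 10 genes (root mean square difference 0.168 on the log2 scale, against 0.0466 for C1QL2, the nearest).

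Most desmosomal partners of DSP were scarce beside it, but the plakophilin gene PKP4 was at 343.9 CPM in wild types, against 336.2 CPM for DSP. Of 13 listed, 7 were tested and 0 passed, with fitted values above 0 for 3 and below 0 for 4, and 0 had an unadjusted p under 0.05. JUP, encoding plakoglobin, was at 25.3 CPM in wild types and PKP2, a plakophilin of heart and brain, at 42.4 CPM, with log2 fold changes of -0.0080 and 0.02. EVPL, encoding envoplakin, had -0.28 (SE 0.19) and PPL, encoding periplakin, -0.11 (SE 0.094). Among the desmosomal cadherins, which span the gap between cells, DSG2 was at 10.5 CPM, whereas DSC2 was at 0.287, DSC3 at 0.0264, DSG3 at 0.00674 and DSG1A at 0 CPM in wild types.

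LCT encodes lactase, the milk sugar enzyme of the gut (chromosome 1, 128284756 to 128328318, minus strand). It was at 212.9, 214.7, 231.5, 210.1 and 214.0 CPM in the wild types, against 217.1, 216.3, 231.8, 242.4 and 267.2 CPM in knockouts. Every knockout lay above 4 of the 5 wild types, and knockouts 3, 4 and 5 lay above all 5, mouse 3 by less than 1 CPM. The means were 216.6 ± 8.47 and 234.9 ± 21.05 CPM (fitted log2 difference 0.12, SE 0.052, 95% interval 0.0060 to 0.23). The edgeR unadjusted p was 0.0399 and the adjusted p 0.788, and the exact two-sided permutation p was 0.0556. Without knockout mouse 5 the fitted value was 0.07 (SE 0.044), smaller by more than 1.5 times. Without wild-type mouse 1 it was 0.11 (SE 0.055, edgeR unadjusted p 0.065).

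NPNT encodes nephronectin, an extracellular matrix ligand of the integrin alpha-8 beta-1 (chromosome 3, 132881745 to 132950291, minus strand). Wild types were at 109.7, 119.3, 123.0, 124.7 and 122.6 CPM and knockouts at 123.3, 127.7, 141.9, 124.4 and 126.9 CPM. Knockouts 2, 3 and 5 lay above every wild type, and mouse 3 stood well above the others. The means were 119.9 ± 5.99 and 128.8 ± 7.53 CPM (fitted log2 difference 0.10, SE 0.046, 95% interval 0.0081 to 0.20). The edgeR unadjusted p was 0.0353, the smallest of the 10 genes, with an adjusted p of 0.788 and an exact two-sided permutation p of 0.0317. The estimate on the log2 scale was 0.07 without wild-type mouse 1 (SE 0.043) and 0.07 without knockout mouse 3 (SE 0.041).

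Of 5 genes for receptors and relatives of nephronectin, 5 were tested, 0 passed and 0 had an unadjusted p under 0.05. ITGA8 averaged 46.7 CPM without and 47.2 CPM with the deletion, and ITGB1 averaged 45.8 and 44.8 CPM (fitted log2 difference -0.03, SE 0.045). ITGAV, an alternative alpha chain, had a log2 fold change of -0.05 (SE 0.066).

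**Figure D3:**
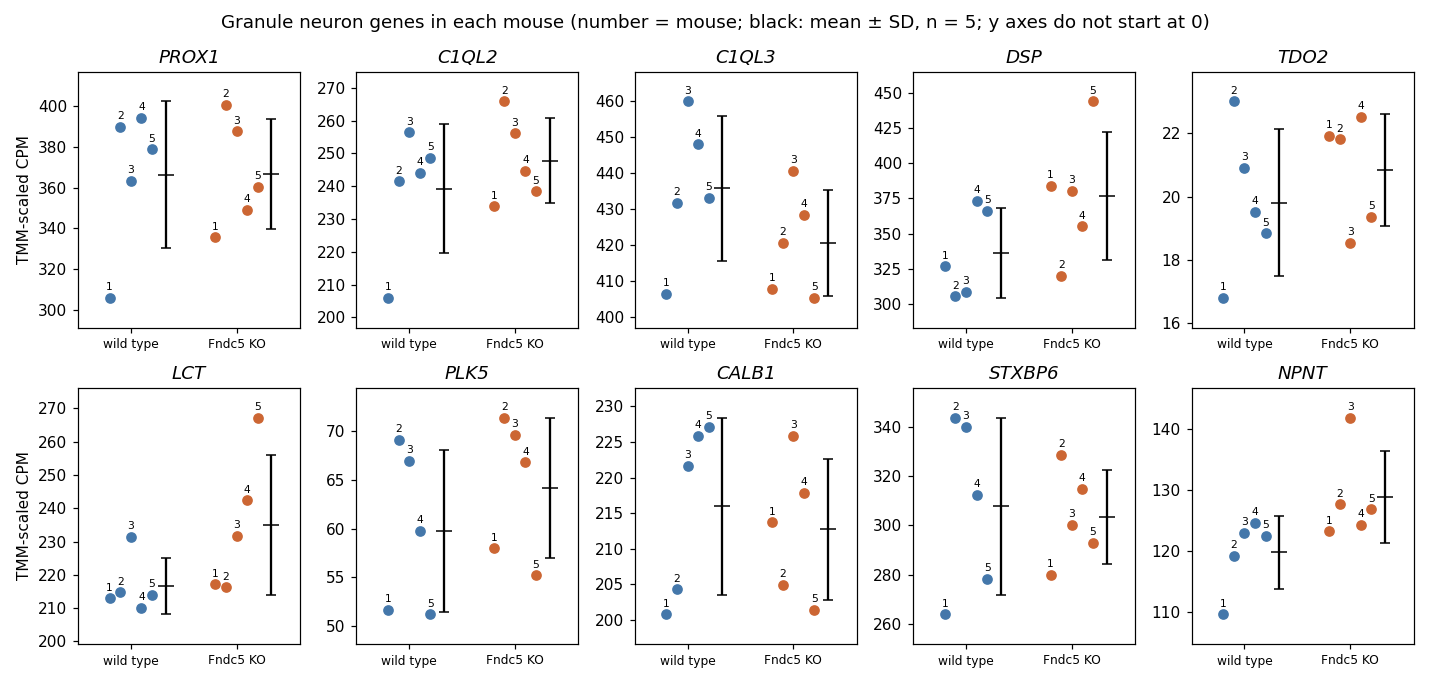
TMM-scaled CPM of each gene in each mouse, wild types in blue and knockouts in orange, numbered by mouse, with the mean ± SD (n = 5) in black and y axes that do not start at 0. Wild-type mouse 1 is the lowest wild type for 7 of the 10 genes, and DSP and LCT are highest in knockout mouse 5, at 443.8 and 267.2 CPM.

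PLK5 is a polo-like kinase family member expressed in brain and not tied to cell division (chromosome 10, 80356459 to 80365489, plus strand). Wild types were at 51.7, 69.1, 67.0, 59.8 and 51.2 CPM and knockouts at 58.0, 71.4, 69.6, 66.8 and 55.2 CPM. Knockouts 2 and 3 lay above every wild type, and the others were interleaved. For PLK5 edgeR fitted 0.10 on the log2 scale (SE 0.087, 95% interval -0.08 to 0.29, edgeR adjusted p 0.858), 0.05 without wild-type mouse 1 and 0.05 after GC and length correction.

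All 4 of the other polo-like kinase genes were tested and 0 passed, with 1 fitted value above 0 and 3 below. PLK2, which neurons induce after activity, averaged 155.8 ± 13.5 CPM without and 142.9 ± 8.78 CPM with the deletion (fitted log2 difference -0.12, SE 0.056, edgeR adjusted p 0.788). PLK1, the mitotic kinase, was at 2.94 and 3.44 CPM (fitted log2 difference 0.23, SE 0.12).

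TDO2 encodes tryptophan 2,3-dioxygenase, which opens the kynurenine pathway (chromosome 3, 81957090 to 81976202, minus strand). Wild types were at 16.8, 23.0, 20.9, 19.5 and 18.8 CPM and knockouts at 21.9, 21.8, 18.5, 22.5 and 19.4 CPM. All knockouts lay within the wild-type range. The fitted log2 difference was 0.07 (SE 0.079, 95% interval -0.09 to 0.24, edgeR adjusted p 0.889) and 0.02 without wild-type mouse 1. With 503 to 919 counts per library it had the fewest reads of the 10 genes.

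The enzymes that act beside or after TDO2 were scarce. Of 11 genes of tryptophan use, 5 were tested, 0 passed and 0 had an unadjusted p under 0.05. KYAT1, a kynurenine aminotransferase, averaged 11.4 CPM without and 11.1 CPM with the deletion. IDO2 was at 0.945 CPM and IDO1 at 0.0983 CPM in wild types, so TDO2 gave most of the reads among the 3 genes of the opening step. The kynurenine monooxygenase gene KMO (0.0384 CPM), KYNU (0.0135 CPM) and HAAO (0.0490 CPM) did not reach the low-count filter.

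The 22 other granule neuron genes were split, with fitted values above 0 for 12 and below 0 for 10 (median 0.0043), and 0 passed. Without wild-type mouse 1 they were above 0 for 8 and below 0 for 14 (median -0.02), with 5 lower at an unadjusted p under 0.05 and 0 past the threshold. In that fit 7.08% of all genes had such a p, and 41.3% of those were higher in knockouts. With all mice there was 1 at an unadjusted p under 0.05, beside 6.29% of all genes (3.75% lower in knockouts). It was the potassium channel gene KCNA1, which averaged 410.4 ± 7.17 CPM without and 389.4 ± 11.0 CPM with the deletion (fitted log2 difference -0.08, SE 0.031, edgeR adjusted p 0.788). NEUROD2, a neuronal basic helix-loop-helix factor, averaged 331.9 ± 24.5 CPM without and 359.6 ± 33.9 CPM with the deletion (fitted log2 difference 0.12, SE 0.061). Markers of immature granule neurons had fitted values above 0 for 4 of 9 tested, with DPYSL3 at -0.15 (SE 0.050) and DCX at -0.14 (SE 0.070). Of these markers 0 passed, and 1 was lower at an unadjusted p under 0.05. Without wild-type mouse 1 they were again above 0 for 4 of 9 (median -0.0079), with 2 lower at such a p. In that fit DPYSL3 was at -0.14 (SE 0.053) and DCX at -0.18 (SE 0.068).

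Markers of the neighbouring cells were read for the same mice. Interneuron markers had fitted values below 0 for 14 of 18 (median -0.09), with GAD1 at -0.08 (SE 0.035) and DLX1 at -0.28 (SE 0.12). Without wild-type mouse 1, in which their mean was highest, they were below 0 for 11 of 18 with a median of -0.0028, and GAD1 was at -0.07 and DLX1 at -0.14. CA2 and CA3 markers were below 0 for 9 of 13 (median -0.07), with AMIGO2 at -0.23 (SE 0.11). With that mouse left out they were below 0 for 7 of 13 with a median of -0.02, and AMIGO2 was at -0.16. CA1 markers were below 0 for 7 of 10, with POU3F1, a factor that other neurons also express, at 0.46 (SE 0.15) and GPR161 at -0.20 (SE 0.095). Mossy cell markers were below 0 for 5 of 8, with NECAB1 at -0.17 (SE 0.087) and CSF2RB2 at 0.17 (SE 0.11). In edgeR 0 genes of these lists passed. At an unadjusted p under 0.05 there were 3 interneuron, 2 CA2 and CA3, 1 CA1 (higher) and 0 mossy cell markers, beside 6.29% of all genes (3.75% lower in knockouts). With wild-type mouse 1 left out, the counts of these 4 lists were 1 (higher), 1, 1 (higher) and 0, beside 7.08% of all genes. The medians of CA1 and mossy cell markers were then -0.04 and -0.03.

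Glial, vascular and other markers likewise had 0 members past the threshold. At an unadjusted p under 0.05 there was 1 (ACTA2, a smooth muscle actin, at 0.32, SE 0.12), beside 6.29% of all genes. Medians of the log2 fold change were 0.0089 for astrocyte, 0.03 for oligodendrocyte, 0.04 for microglia, 0.00080 for endothelial and mural, -0.0033 for choroid plexus and -0.05 for thalamus and habenula markers. With wild-type mouse 1 left out these were 0.0044, 0.0032, 0.01, -0.05, -0.03 and -0.03 in the same order, and ACTA2 was at 0.24 (unadjusted p 0.0613 in edgeR). Among their smallest p-values were those of AQP4 (-0.07, SE 0.067), GLUL (0.04, SE 0.048), MOG (0.15, SE 0.083), OPALIN (0.21, SE 0.14), CSF1R (0.09, SE 0.056), P2RY12 (-0.07, SE 0.061), VTN (0.10, SE 0.052), PRLR (-0.29, SE 0.17), KL (0.08, SE 0.057) and PRKCD (0.19, SE 0.11).

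The 10 genes were then averaged per mouse as the difference of log2 CPM from the wild-type mean. Wild-type mouse 1 was at -0.149, with all 10 genes below the wild-type mean, and the other wild types ranged from -0.009 to 0.065. Knockouts ranged from -0.002 to 0.092, so the genotypes overlapped. Knockout mouse 1 had the lowest value of its genotype for 4 of the 10 genes and for their mean. In wild-type mouse 1 the shortfall was uneven: PROX1 was at -0.25, TDO2 at -0.23, C1QL2 and STXBP6 at -0.21 and PLK5 at -0.20, whereas LCT was at -0.02 and DSP at -0.035. Interneuron markers averaged 0.232 in the same mouse and -0.098 to -0.014 in the other wild types.

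**Figure D4:**
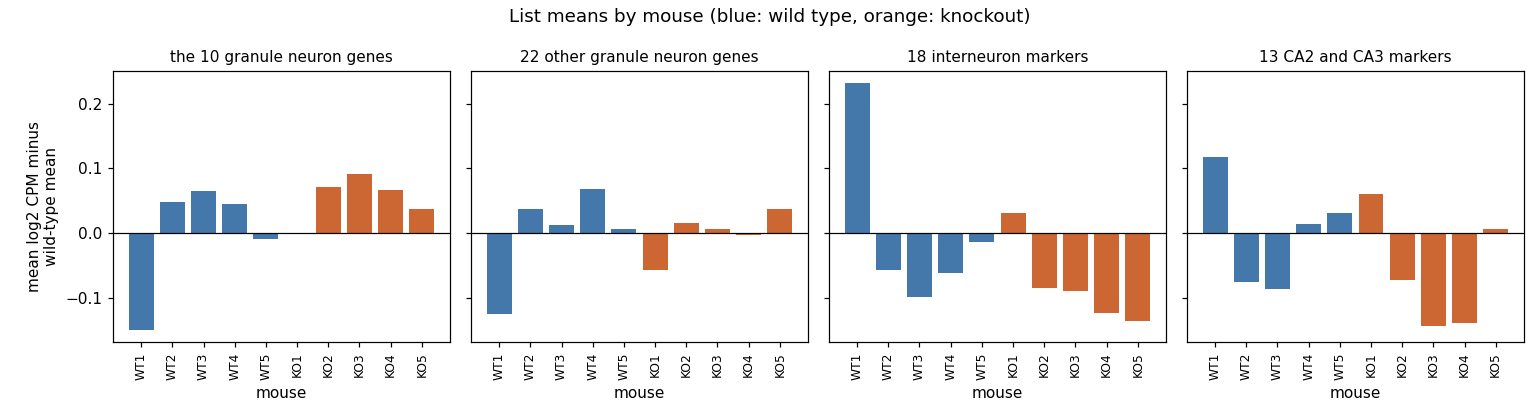
Mean difference of log2 CPM from the wild-type mean in each mouse, for 4 gene lists (blue bars wild types, orange bars knockouts). Wild-type mouse 1 is lowest for the 10 granule neuron genes (-0.149) and the 22 others (-0.125) and highest for interneuron (0.232) and CA2 and CA3 markers (0.117).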

How the data were processed

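The authors deposited whole-number read counts, 1 row per gene symbol and 1 column per mouse, without normalization. The build mm10 and the tools Cufflinks 2.2.1 and STAR 2.5.1b are named in the submitters' processing notes, without their roles. How the counting treated strand and multimapping reads is not given in the sources used here. Per the labels' protocols, a stranded mRNA kit was used on 500 ng of RNA, followed by sequencing of single 75-base reads. Of 24982 symbols, 24853 matched GENCODE M21 or RefSeq, and positions are GRCm38, 1-based.

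After filterByExpr and TMM scaling, a quasi-likelihood model (glmQLFit, glmQLFTest) of edgeR 4.0.16 in R 4.3.3 compared knockouts with wild types, with Benjamini-Hochberg adjustment over all 14867 genes and a threshold of 0.05. Log2 CPM used a prior count of 2. Single genes and the ratio were also compared by exact permutation over 252 assignments, with no adjustment over the 10 genes. All mice of a genotype differed from each other by more than counting noise (chi-square per degree of freedom at least 4.64). P-values set the difference between the genotypes against the spread between these mice.

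The 10 genes and the lists were chosen with earlier results of these data known. Named genes are the 10, Fndc5, and the 2 tested genes with the smallest p of each list, plus the 5 nearest profiles; further list genes were named with their values in view. A gene that the rule names is not reported here. Alternatives were DESeq2 1.42.0, limma-voom 3.58.1, scaling by the upper quartile, testing without the low-count filter, a minimum of 1 CPM in 5 libraries, a block for the mouse number, and leaving out single libraries. A spline correction for GC content and exon length (4 degrees of freedom each) was added after seeing the data. On counts simulated for this comparison (14795 genes), the test recovered 68.7% of 67 genes changed 1.25-fold, 76.1% of 67 changed 1.5-fold and 95.4% of 65 changed 2-fold. In the same counts 8 unchanged genes passed. The simulated libraries were drawn independently, and so many changed genes made the adjusted threshold easier to pass than in the real counts, where 1 gene passed. These rates therefore do not give the power for the 10 genes. Protein sequences were not used here.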

Additional observations from a re-analysis of the deposited data

Results flagged for a closer look

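For each gene, the mean of the 10 and the C1QL2 to C1QL3 ratio, the 5 mice of a genotype were searched for a value far from the remaining ones. Of these 24 searches 2 found one, and chance gives about 1 in 20, or 1.2. Wild-type mouse 3 had 231.5 CPM of LCT, and the remaining wild types had 210.1 to 214.7 CPM. NPNT was at 141.9 CPM in knockout mouse 3, the other knockouts at 123.3 to 127.7 CPM.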

How the results depend on the processing

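In 17 alternatives 0 of the 10 genes passed (smallest adjusted p 0.257, DSP with the replicate block). DSP, LCT, NPNT, PLK5 and TDO2 stayed above 0 and C1QL3 below 0 in all 17. With single mice left out, PROX1 ran from -0.0568 to 0.0316 and STXBP6 from -0.0715 to 0.0217, and both changed sign. In the same fits C1QL2 ran from 0.00085 to 0.08, TDO2 from 0.02 to 0.13, PLK5 from 0.05 to 0.16 and CALB1 from -0.05 to -0.0022. After the GC and length correction, chosen after seeing the data, C1QL2 was at -0.0052, CALB1 at 0.0574 and STXBP6 at 0.0150. The median over the 10 genes ran from 0.0093 (without wild-type mouse 1) to 0.09 (without wild-type mouse 3), and moved by over 1.5 times also without knockout mouse 2 (0.04). The cause was not tested. Among all genes, 1 passed in edgeR, 3 with DESeq2, 8 with the replicate block and 1 to 3 with single mice left out (3 without wild-type mouse 1, 2 without knockout mouse 2). Among genes with an unadjusted p below 0.05, 40.4% had higher knockout values with TMM and 57.4% with upper-quartile scaling.

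Deviations of same-numbered mice correlated at 0.209, 0.204, 0.108, 0.00901 and 0.0282. The labels do not say that a number marks a shared litter or day, and mice were treated as unpaired. In the numbering of the libraries wild types and knockouts alternate, so that mice of the same number are next to each other. Whether same-numbered mice were paired is not known. Wild types 1, 2 and 5 and knockouts 1, 2 and 3 correlated best with the mouse of their own number. Wild types 3 and 4 and knockouts 4 and 5 correlated best with a mouse of another number. With the replicate block 4 of the 10 genes had an unadjusted p under 0.05 (10% of all genes), against 3 without it (6.29%), PLK5 being the addition. The block lowered the SE of all 10 genes, from 0.079 to 0.071 for TDO2 and from 0.087 to 0.037 for PLK5. For DSP it went from 0.074 to 0.045 (edgeR unadjusted p 0.0023 with the block). At 503 counts or more per gene and library, the precision was set mainly by the 5 mice per genotype. Counting error weighed most for TDO2, which had the fewest reads.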

Other observations

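The 5 genes whose levels over the 10 libraries lay nearest to the mean profile of the granule neuron genes were YBX1, DGKZ, VRK1, POGZ and STK38. Likeness was the root mean square difference of log2 CPM, each gene centred on its mean over the 10 libraries, which was 0.0278 for YBX1, 0.0292 for DGKZ, 0.0296 for VRK1, 0.0307 for POGZ and 0.0310 for STK38. A gene with no variation would score 0.0658, and 773 of 14857 genes compared scored less than that. Each of the 5 was lowest in wild-type mouse 1, as the mean profile is. DGKZ, which encodes a diacylglycerol kinase, was at 531.6 CPM in that mouse and 579.5 to 633.7 CPM in the others.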
